A study of Homo sapiens with 12 samples.

Results

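Dormant PC9 cells were compared with PC9 cells given solvent, in 4 of the 12 libraries of a series on EGFR-mutant lung cancer lines. The 4 were chosen by their labels alone, 2 labelled dormant and 2 labelled DMSO. PC9 is an established human lung adenocarcinoma line, grown here as a single line in culture, and its growth depends on a mutant EGFR gene that both groups carry. The DMSO cells were harvested after 24 h of solvent, from 10 cm dishes. The dormant cells had received 100 nM osimertinib, which blocks mutant EGFR, and 30 nM trametinib, which blocks the kinase MEK, for 2 weeks in 15 cm dishes. Drug, duration and dish size therefore cannot be told apart. Plates were set up in duplicate, and separate cultures for the plates of 1 group are not stated, so p-values measure the spread between these libraries, which may be technical. The other 8 libraries are the same treatments of HCC827 and HCC4006, also EGFR-mutant lung lines, and serve only for a test of how PC9 differed from them.

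EGFR signals through RAS, RAF, MEK and ERK to transcription factors that switch on cyclin D and the genes of the cell cycle, and ERK also induces its own inhibitors. When both EGFR and MEK are blocked most EGFR-mutant cells die, and a small, slowly cycling fraction survives, from which relapse can grow. The title of the series concerns YAP, a coactivator held in check by the Hippo kinases that binds DNA through the TEAD factors, and its hold on the genes of apoptosis in such cells.

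Expression is given as FPKM, fragments of a gene scaled to its length and to the fragments of the library, as deposited, so that levels of genes can be set side by side. Each difference is the mean log2(FPKM + 1) of dormant libraries less that of DMSO libraries, given with the SE of the fit, and it understates the change of genes with low FPKM. Across genes, which are not independent replicates, the log2 values of the DMSO pair correlated at r = 0.991 and those of the dormant pair at 0.977, against 0.887 to 0.904 between groups. Counts are not among the values used here, so sequencing depth is unknown. Mitochondrial transcripts held 23.7% and 25.2% of summed FPKM in DMSO and 20% and 13.8% in dormant libraries, so the second dormant library was the lowest. Epithelial markers of a lung adenocarcinoma were high in all 4 libraries, with EPCAM at 99.8 and 219.9 FPKM in DMSO and 153 and 132 in dormant cells and KRT8 at 7249 and 6645 in DMSO and 5347 and 7352 in dormant libraries. The lung lineage genes were not: NKX2-1 was listed at 0 in all 4 libraries, and NAPSA and SFTPB stayed under 1 FPKM. Most markers of other cell types were close to absent. Fewer cells of a type and less RNA per cell cannot be told apart in such bulk samples. The 10 fibroblast markers summed to 0.88 and 1.17 FPKM in DMSO and 1.08 and 1.85 in dormant libraries, and the 8 neuroendocrine markers to 1.84 and 1.40 and to 1.88 and 1.77. Of 12 leukocyte markers, which summed to 29.7 and 26.5 FPKM in DMSO and 9.73 and 10.1 in dormant libraries, CD68 alone passed the filter, with PTPRC and CD3E at or under 0.1. Of 9 endothelial markers, which summed to 10.3 and 7.45 and to 2.23 and 2.64, ESAM alone did, with CLDN5 and ERG listed at 0.

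Dormant PC9 cells differed from DMSO cells in 37.8% of the genes tested, and whether rises or falls were more frequent depended on the scaling. The fit of the 4 libraries with limma covered the 10753 genes that reached 1 FPKM in 2 or more of them. A gene was called at a Benjamini-Hochberg adjusted p under 0.05. By that rule 2412 genes rose, which is 22.4% of those tested, and 1654 fell, which is 15.4%. Of the 4066 called, 4065 had both dormant libraries on 1 side of both DMSO libraries. With 2 libraries a group a call nearly requires this, so it adds no support to the calls. The share among all genes tested is not given. A rise of at least 1 log2 unit was called in 1361 genes and a fall of that size in 916. At 2 log2 units the counts were 288 and 155, and at 4 they were 34 and 10. Genes that rose made up 59.3% of the called genes, 62.9% with equal library sums, 51.0% with median of ratios scaling and 48.9% with quantile normalization. The median difference of all genes tested was 0.08 and became -0.03 with quantile normalization, so gene lists are set against that median. Leaving out 1 library changed the counts, to 1402 higher and 842 lower without the first DMSO library, 1315 and 1074 without the second, and 2958 and 2569 without the first dormant library. Where a value is given without either DMSO library, each was left out in turn. A fit of all 12 libraries, in which 2 libraries of the other lines that stood apart from their replicate set part of the spread, called 342 genes higher (3.18%), 170 lower (1.58%) and 512 in all (4.76%), with 1047 and 690 at an unadjusted p under 0.05, and all 512 were among the 4066. Beside a list, its higher and lower counts in that fit are given as the counts with all 12 libraries. A gene under 1 FPKM in both libraries of 1 group entered the fit through the other group alone. There were 1241 such genes, and 72.2% of them were called. That share follows in part from the filter, so such a gene is given below by its levels, with no difference or test in PC9. A list's count is followed by the number of its called genes that entered through 1 group. Among the other 9512 genes 19.2% rose and 14.2% fell, and the counts of each list are to be read against these shares.

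**Figure D1:**
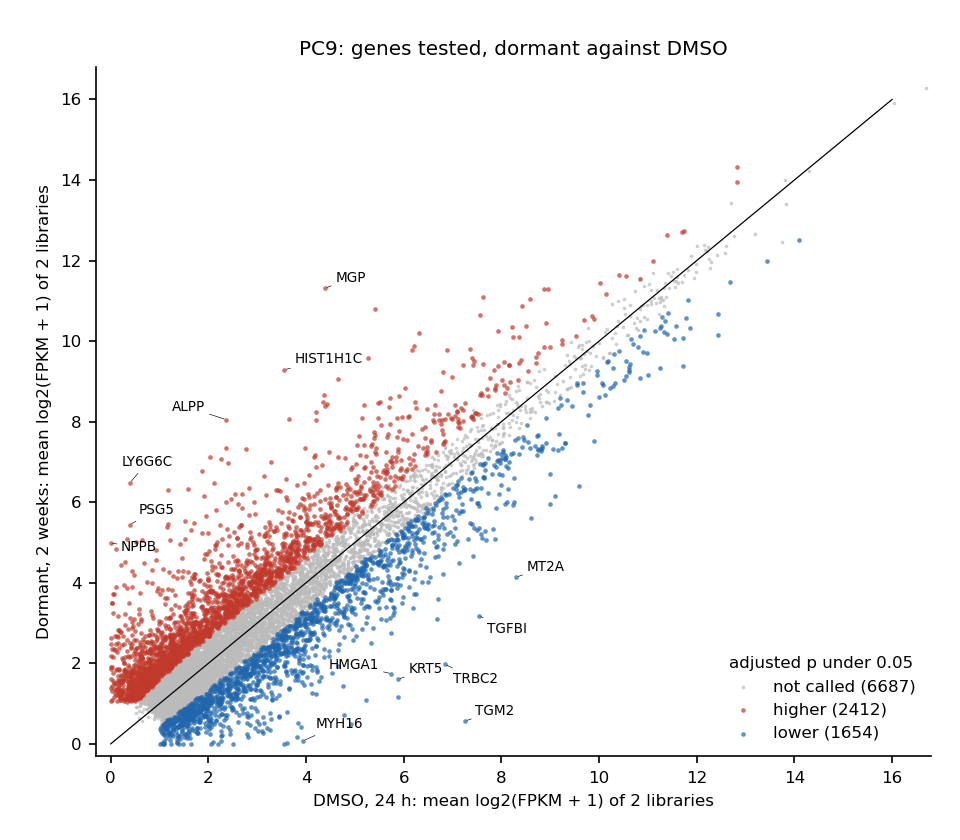
Each point is 1 of the 10753 genes tested in PC9, placed by the mean log2(FPKM + 1) of its 2 DMSO libraries (x axis) and of its 2 dormant libraries (y axis), with the line of equal values drawn. The 2412 genes called higher lie above the line and the 1654 called lower lie below it, and MGP and TGM2 lie farthest from it.

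The scatter of gene means shows these counts, with called genes on both sides of the line at every level of expression. Some of the largest changes were in genes for secreted and surface proteins. MGP, a matrix Gla protein that inhibits calcification, had 21.7 and 18.4 FPKM in the DMSO libraries and 2380 and 2712 in the dormant ones, a difference of 6.92 ± 0.21 (limma, Benjamini-Hochberg adjusted p = 2.1e-08). LY6G6C, a member of the LY6 family of membrane-anchored proteins, went from 0.47 and 0.18 to 65.6 and 119 FPKM. Only called genes without overlap of the groups were considered for these extremes. The placental alkaline phosphatase ALPP (5.68), the complement factor CFB (5.09), the pregnancy-specific glycoprotein PSG5 (0.37 and 0.265 FPKM in DMSO, 49 and 37 in dormant libraries), the endoplasmic reticulum autophagy receptor RETREG1 (4.89) and the scavenger receptor OLR1 (4.81) were also among the 12 that rose most. The histones HIST1H1C, HIST1H2AC and HIST2H2AA3 and the natriuretic peptide NPPB were too. LY6G6C, PSG5 and NPPB entered through the dormant group. ALPP, PSG5 and the histones have close copies in the genome, with which their reads may be shared.

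Among the 12 genes that fell furthest, TGM2, the cross-linking enzyme tissue transglutaminase, went from 155 and 149 FPKM in DMSO to 0.81 and 0.215 in dormant libraries. TGFBI, a matrix protein induced by TGF-beta, went from 180.3 and 189.5 to 9.23 and 7.01 FPKM (-4.36 ± 0.22, limma adjusted p = 3.68e-07). The metallothionein MT2A, which binds zinc and copper, went from 333 and 299 to 14.2 and 19.5 (-4.17 ± 0.22). Here too, groups without overlap were a condition of the choice, not a result. Transcripts of the T cell receptor beta locus fell as well, TRBC2 from 123 and 105 to 2.6 and 3.31 FPKM (-4.87 ± 0.23) and TRBJ2-1 from 50.6 and 67 to 1.23 and 1.25 (-4.73 ± 0.24), in cells where the T cell markers CD3D and CD3E did not exceed 0.08 FPKM. The basal keratin KRT5 (-4.28), the raft protein MALL (-4.15) and the chromatin protein HMGA1 (-4.002) were among the 12 as well. So were 4 genes that, like TGM2, entered through the DMSO group. MYEOV, a gene first found in myeloma, was at 31.3 and 27.4 FPKM in DMSO and 0.33 and 0.47 in dormant libraries, and the metallothionein MT1A at 30 and 23.4 in DMSO and 0.44 and 0.86 in dormant libraries. The adhesion molecule CEACAM6 was at 13.8 and 12.4 in DMSO and 0.14 and 0.13 in dormant libraries, and the last was the myosin heavy chain gene MYH16. All 24 genes of these extremes were also called with all 12 libraries and with each PC9 library left out.

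**Figure D2:**
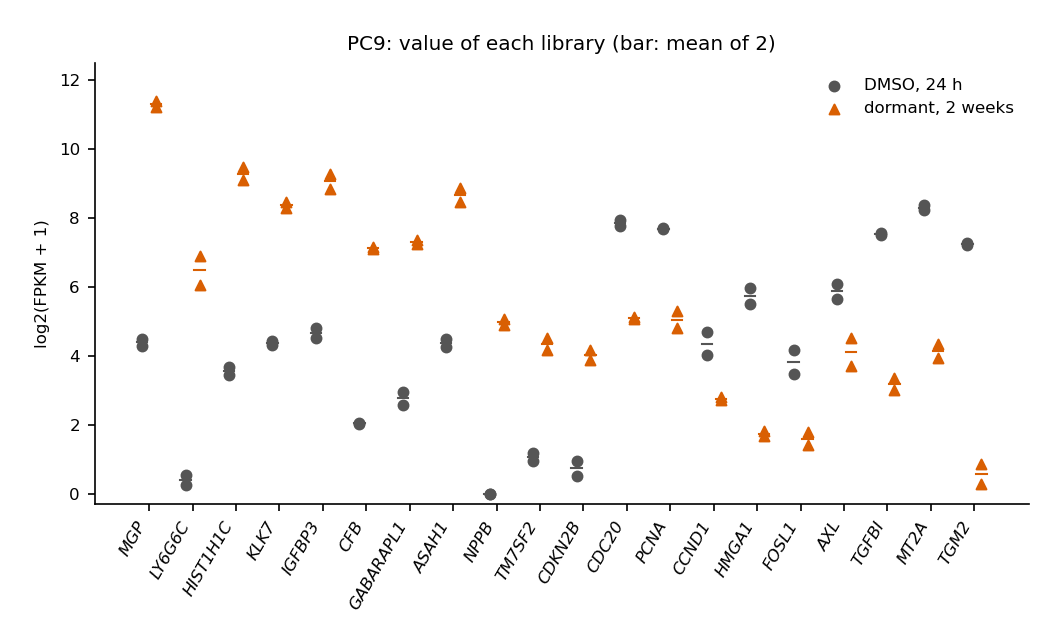
Values of 20 genes in each PC9 library, as log2(FPKM + 1) on the y axis, with circles for DMSO, triangles for dormant cells and a bar at the mean of 2. The 2 triangles of a gene lie on 1 side of its 2 circles in every gene shown, above them from MGP to CDKN2B and below them from CDC20 to TGM2.

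Some genes were close to 0 on 1 side. At or under 0.1 FPKM in both DMSO libraries and at 2 or more in both dormant libraries were 16 genes, and 8 showed the reverse. All of them entered through their high group. NPPB, which encodes B-type natriuretic peptide, was listed at 0 in both DMSO libraries and at 29.1 and 32.5 FPKM in the dormant ones. MYL7, an atrial myosin light chain, went from 0 and 0.075 to 13.8 and 10.9 FPKM, and SAA2, an acute-phase serum amyloid protein, from 0.025 and 0.055 to 7.7 and 9.38. All 3 encode products best known from heart or liver, and SAA2 has a close copy, SAA1, with which its reads may be shared. WFDC21P was at 10.8 and 13.7 FPKM in dormant cells and at or under 0.08 in DMSO cells, and the cancer-testis antigen XAGE2 was at 9.89 and 10.7, against 0.03 and 0. A second identifier without a symbol in the table had the same values as XAGE2 in all 4 libraries, so these reads cannot be assigned to 1 of the pair. On the other side, MYH16 went from 14.2 and 14.5 FPKM to 0.055 in both dormant libraries, and TFF1, a secreted trefoil peptide of mucous epithelia, from 12.1 and 9.42 to a listing of 0 in both. DUSP6, the ERK phosphatase, went from 3.54 and 3.58 to 0 in both, and TMEM156 from 3.35 and 3.19 to 0.045 and 0.025.

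Genes of cell division fell in dormant PC9. All 30 mitosis genes tested fell (3 through 1 group), with a median difference of -1.82 against 0.08 for all genes tested, and their summed level went from 2155 and 1846 FPKM to 437 and 374. CDC20, which activates the anaphase-promoting complex, went from 246 and 218 FPKM in DMSO to 33.6 and 32.3 in dormant libraries (-2.78 ± 0.20, limma adjusted p = 3.6e-06). CDK1, the kinase that drives entry into mitosis, went from 184 and 156 to 30.4 and 19.4 (-2.75 ± 0.25), and PLK1, a kinase of spindle assembly, from 152 and 128 to 19.9 and 23.2 (-2.65 ± 0.21). In each of these 3 genes the dormant pair lay far below the DMSO pair, and transcripts were still present. CCNA2 (-2.54) and the checkpoint protein MAD2L1 (-2.49) were close behind, while CENPA, the centromeric histone, was at 1.32 and 1.09 FPKM in DMSO and 0.135 and 0.465 in dormant libraries. MKI67, the proliferation marker, went from 5.92 and 4.37 to 1.47 and 0.99 FPKM (-1.46 ± 0.26). Leaving out 1 library left 29 or 30 of the 30 called. With all 12 libraries 4 were, CDK1 and CCNA2 among them, and CDC20, PLK1, MAD2L1, MKI67 and CENPA were not.

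Promoters of mitosis genes often hold the CHR element (TTTGAA), through which these genes are repressed in resting cells, and the CCAAT box, which binds the activator NF-Y. The 250 bases before the transcription start are shown for the 3 mitosis genes that fell furthest and have an entry in the RefSeq promoter table (GRCh38.p14), all on the plus strand, with each TTTGAA or CCAAT in capitals, including those read on the other strand (TTCAAA and ATTGG). They are the windows chr1:43358731-43358980 for CDC20, chr10:60778228-60778477 for CDK1 and chr16:23678639-23678888 for PLK1.
CDC20: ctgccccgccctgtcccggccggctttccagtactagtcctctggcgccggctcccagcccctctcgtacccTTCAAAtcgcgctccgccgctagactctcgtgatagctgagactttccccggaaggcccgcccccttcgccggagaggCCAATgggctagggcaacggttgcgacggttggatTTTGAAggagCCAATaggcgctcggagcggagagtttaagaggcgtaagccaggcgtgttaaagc
CDK1: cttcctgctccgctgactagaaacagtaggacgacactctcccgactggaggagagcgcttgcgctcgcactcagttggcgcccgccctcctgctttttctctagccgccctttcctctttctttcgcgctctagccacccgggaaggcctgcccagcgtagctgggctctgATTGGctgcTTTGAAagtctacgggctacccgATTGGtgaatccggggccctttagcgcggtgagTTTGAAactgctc
PLK1: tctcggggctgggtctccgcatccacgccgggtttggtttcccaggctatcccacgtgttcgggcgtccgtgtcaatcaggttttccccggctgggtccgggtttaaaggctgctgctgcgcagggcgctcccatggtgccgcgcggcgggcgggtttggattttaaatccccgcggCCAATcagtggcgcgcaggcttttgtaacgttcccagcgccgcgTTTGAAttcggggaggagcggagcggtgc

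The element nearest the start ended 51 bases before it in CDC20 (a CCAAT box), 8 bases in CDK1 (a CHR element) and 24 bases in PLK1 (a CHR element), and no 2 matches overlapped. Of the 30 mitosis genes, 25 were found in the table, with 31 promoters, of which 14 (45.2%) held TTTGAA and 25 (80.6%) held CCAAT on either strand. Among all 35116 promoters of the table the shares were 13.3% and 32%. For 30 of the 36 DNA replication genes, with 38 promoters, CCAAT was present in 60.5% and TTTGAA in 2.6%. A match is a run of letters, not a site of binding.

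DNA replication genes fell too. Of 36 tested, 30 fell (2 through 1 group) and none rose, with a median of -1.42, and 23 to 33 fell with 1 library left out (3 with all 12). PCNA, the sliding clamp of DNA polymerases, went from 210.0 and 202 FPKM to 38.2 and 27.1 (-2.64 ± 0.22, limma adjusted p = 1.04e-05). The helicase subunits MCM5 (-2.56) and MCM7 (-2.51), the helicase partner GINS2 (-2.46) and the nucleotide reductase subunit RRM2 (-2.23) made up the 5 that fell furthest, and of these 5 PCNA alone was called with all 12 libraries. CDT1, POLE, POLD1, RPA1 and RPA2 were among those not called. At the entry to the cycle, 5 of 8 tested G1 genes fell (1 through 1 group) and none rose. CCND1, cyclin D1, went from 15.2 and 24.8 to 5.54 and 5.93 FPKM (-1.60 ± 0.27), CCNE2, cyclin E2, changed by -1.32 ± 0.24, and CDK2 by -1.18 ± 0.24, while the repressor E2F8 was at 2.02 and 1.96 FPKM in DMSO and 0.525 and 0.24 in dormant libraries. CDK4, the partner of cyclin D, went from 125 and 115 to 70.2 and 74.6 (-0.73 ± 0.20), a call that ended without either DMSO library (adjusted p = 0.171 and 0.0899). None of these G1 genes was called with all 12 libraries.

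Genes that hold cells out of the cycle rose, CDKN1A and CDKN1B not among them. Among 15 tested CDK inhibitors and quiescence genes 11 rose and none fell, with a median of 1.34 (8 to 12 with 1 library left out, 6 with all 12 libraries). Of the 11, 4 entered through 1 group, and the median of the other members was 0.84. YPEL5, a yippee-like protein, went from 3.77 and 3.73 FPKM to 51.4 and 34.2 (3.18 ± 0.25, limma adjusted p = 6.59e-06) and TOB1, an antiproliferative protein that recruits the deadenylase complex, from 19.2 and 14.8 to 114 and 168 (2.97 ± 0.25). CDKN2B, the CDK4 and CDK6 inhibitor p15, was at 0.44 and 0.935 FPKM in DMSO and 13.8 and 17 in dormant libraries. GAS6, the growth-arrest-specific ligand of AXL, rose by 2.24 ± 0.28 and HBP1, a repressor of cyclin D1, by 2.12 ± 0.25, and GAS6 was not called with all 12 libraries. CDKN1A, which encodes p21, was at 3.44 and 4.07 FPKM in DMSO and 3.61 and 2.24 in dormant cells (-0.30 ± 0.26, adjusted p = 0.413), and CDKN1B, which encodes p27, at 2.45 and 2.52 in DMSO and 3.23 and 2.94 in dormant libraries (0.23 ± 0.24, adjusted p = 0.486). Neither was called, though CDKN1A was called lower without the first dormant library (adjusted p = 0.0483).

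Genes that ERK induces fell. Of 16 tested, 14 fell (7 through 1 group) and none rose, with a median of -1.37 (11 to 15 with 1 library left out, 3 with all 12 libraries, and 1 higher without the second dormant library). HMGA1 went from 44.7 and 62.1 FPKM to 2.495 and 2.21 (-4.002 ± 0.24, limma adjusted p = 1.22e-06) and the AP-1 member FOSL1 from 10.2 and 17.2 to 1.66 and 2.44 (-2.23 ± 0.29). Each fell well outside the spread of its DMSO pair. Several known ERK targets entered through the DMSO group. The ETS factor ETV4 was at 7.57 and 6.41 FPKM in DMSO and 0.66 and 0.32 in dormant libraries, and ETV5 at 3.49 and 3.93 in DMSO and 0.535 and 0.285 in dormant libraries. The feedback phosphatase DUSP4 was at 4.14 and 4.76 in DMSO and 0.18 and 0.185 in dormant libraries. SPRY4, a feedback inhibitor, stayed under the filter at 0.215 and 0.35 FPKM in DMSO and 0 in both dormant libraries. MYC went from 19.3 and 16.5 to 9.54 and 11.7 FPKM (-0.71 ± 0.23, adjusted p = 0.0322). The MYC call ended without either DMSO library (adjusted p = 0.298 and 0.126) and without the first dormant library (0.0616). FOSL1 and MYC were not called in the fit of 12 libraries.

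The receptor genes above ERK moved in both directions. EGFR itself went from 10.6 and 10.3 FPKM to 6.12 and 3.58 (-1.004 ± 0.27, limma adjusted p = 0.0131), while ERBB2 went from 1.07 and 1.23 to 3.62 and 2.71 (0.94 ± 0.24) and ERBB3 from 5.19 and 6.33 to 12.9 and 10.4 (0.91 ± 0.24). So the receptors of this family differed in direction. The EGFR ligands were at 3.89 and 4.13 FPKM in DMSO and 0.605 and 0.42 in dormant libraries for AREG and at 2.61 and 3.12 in DMSO and 0.51 and 0.73 in dormant libraries for HBEGF. Without the first or the second DMSO library the calls of EGFR (adjusted p = 0.0922 and 0.0782), ERBB2 (0.14 and 0.0809) and ERBB3 (0.168 and 0.0567) ended. Of 10 genes of this list 2 rose and 4 fell (3 through 1 group), but without either DMSO library 0 rose and 2 fell, and limma called none with all 12 libraries. Of its members that did not enter through 1 group 28.6% rose and 14.3% fell, against 19.2% and 14.2% of all such genes. Of 12 other receptor tyrosine kinases, DDR1, a collagen receptor (1.07), and EPHB6 (1.42) rose, and AXL and EPHA2 fell. FGFR4, called lower, entered through 1 group. Of these kinases that did not, 20% rose and 20% fell, near the shares of all such genes. The list had 2 to 3 higher and 2 to 4 lower with 1 library left out, and limma called none with all 12 libraries. AXL, a receptor known for bypass of EGFR inhibitors, went from 67.4 and 49.2 to 12.1 and 21.8 FPKM (-1.76 ± 0.29, adjusted p = 0.000765) as its ligand GAS6 went from 2.52 and 2.53 to 11.9 and 20.4. MET, another bypass receptor, was at 12.49 and 10.1 FPKM in DMSO and 15.2 and 10.1 in dormant libraries (0.13 ± 0.26, adjusted p = 0.718) and was not called. Of the 5 ligand genes tested GAS6 and PDGFC rose, PDGFC not without the second DMSO library (adjusted p = 0.163), and 4 rose without the first dormant library (none called by limma with all 12 libraries).

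Some target genes of YAP and TEAD rose, and falls were about as frequent as among all genes. Of 19 tested, 7 rose (1 through 1 group) and 2 fell, with a median of 0.45. With 1 library left out 5 to 9 were higher and 2 to 3 lower, and with all 12 libraries 1 and 1. Of the 16 members that did not enter through 1 group 6 rose and 2 fell. Among all such genes 19.2% rose and 14.2% fell, so the falls did not stand out. IGFBP3, a secreted binding protein of insulin-like growth factors, went from 21.9 and 26.8 FPKM to 460.1 and 622 (4.41 ± 0.23, limma adjusted p = 3.82e-07). CYR61, a matricellular protein and a core target, went from 6.01 and 8.16 to 19.1 and 21.3 (1.40 ± 0.24) and CCDC80 from 11.3 and 11.5 to 53 and 42.5 (1.96 ± 0.22). The core target CTGF stayed low, at 0.74 and 0.78 in DMSO and 1.69 and 1.71 in dormant libraries, and entered through 1 group. ANKRD1, the third core target, was under the filter at 0.28 and 0.305 FPKM in DMSO and 0.85 and 0.405 in dormant libraries. Those that fell were AXL and NT5E, the ecto-nucleotidase CD73, which went from 32.2 and 30.6 to 5.59 and 5.14 (-2.35 ± 0.22). CYR61, CCDC80 and AXL were not called once all 12 libraries were fitted.

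The regulators of this pathway did not rise together. YAP1 was at 1.23 and 1.58 FPKM in DMSO and 1.18 and 0.33 in dormant cells (-0.49 ± 0.26, limma adjusted p = 0.152). Its dormant libraries differed widely, and it was called lower without the first of them (adjusted p = 0.000686). WWTR1, which encodes the YAP paralog TAZ and was the more abundant of the pair, went from 16.7 and 14.6 to 7.03 and 3.48 (-1.47 ± 0.29, adjusted p = 0.00265). TEAD4 went from 9.51 and 10.1 to 3.44 and 5.07 FPKM (-1.06 ± 0.25), and its call ended without either DMSO library (adjusted p = 0.0609 and 0.0837). TEAD1 was not called (0.19 ± 0.27, adjusted p = 0.608), except without the second dormant library (0.0384). Of 18 genes of the Hippo pathway and TEAD factors 4 rose (TEAD3, WWC1, AMOTL2 and, through 1 group, SAV1) and 5 fell (WWTR1, TEAD4, STK3, MOB1A and FRMD6). Of members that did not enter through 1 group 20% rose and 33.3% fell, against 19.2% and 14.2% of all such genes. The share of rises was thus near that of all genes. Without the first DMSO library 2 rose and 1 fell, AMOTL2 (adjusted p = 0.0527) and FRMD6 (0.0511) no longer among them. Without the second 2 rose and 3 fell, WWC1 not among them (0.0804), 6 rose without the second dormant library, and limma called none with all 12 libraries.

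Apoptosis genes of the BCL2 family were called about as often as other genes on the pro-apoptotic side, 3 of 10 tested against 37.8% of all genes. BCL2L11, which encodes the death activator BIM, was at 2.08 and 1.94 FPKM in DMSO and 3.52 and 2.79 in dormant cells (0.46 ± 0.24, limma adjusted p = 0.154). PMAIP1, which encodes NOXA, was at 1.82 and 1.73 in DMSO and 3.76 and 2.28 in dormant libraries (0.51 ± 0.26, adjusted p = 0.143). Neither was called. With the second dormant library left out, which leaves 1 dormant library, the differences were 0.59 for BCL2L11 and 0.78 for PMAIP1. BMF (0 and 0.04 FPKM in DMSO, 0.175 and 0.175 in dormant libraries) and BBC3, which encodes PUMA (0.035 and 0.01 in DMSO, 0 and 0.025 in dormant libraries), were under the filter. Of 10 pro-apoptotic genes tested BOK (1.06) and the mitophagy receptor BNIP3L (0.86) rose and BIK (-0.95) fell, and none of these calls held without the first DMSO library (adjusted p = 0.0533, 0.109 and 0.185) or without the second (0.055, 0.0791 and 0.0568). With 1 dormant library left out 3 or 4 rose, and limma called none with all 12 libraries. On the protective side limma called none of 6 tested, among them BCL2L1, which encodes BCL-XL (-0.46 ± 0.23, adjusted p = 0.138), and MCL1 (0.31 ± 0.25, adjusted p = 0.362), and BCL2 was under the filter. Of the 6, 1 was called higher without the second dormant library, 2 lower without the first and none by limma with all 12 libraries.

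**Figure D3:**
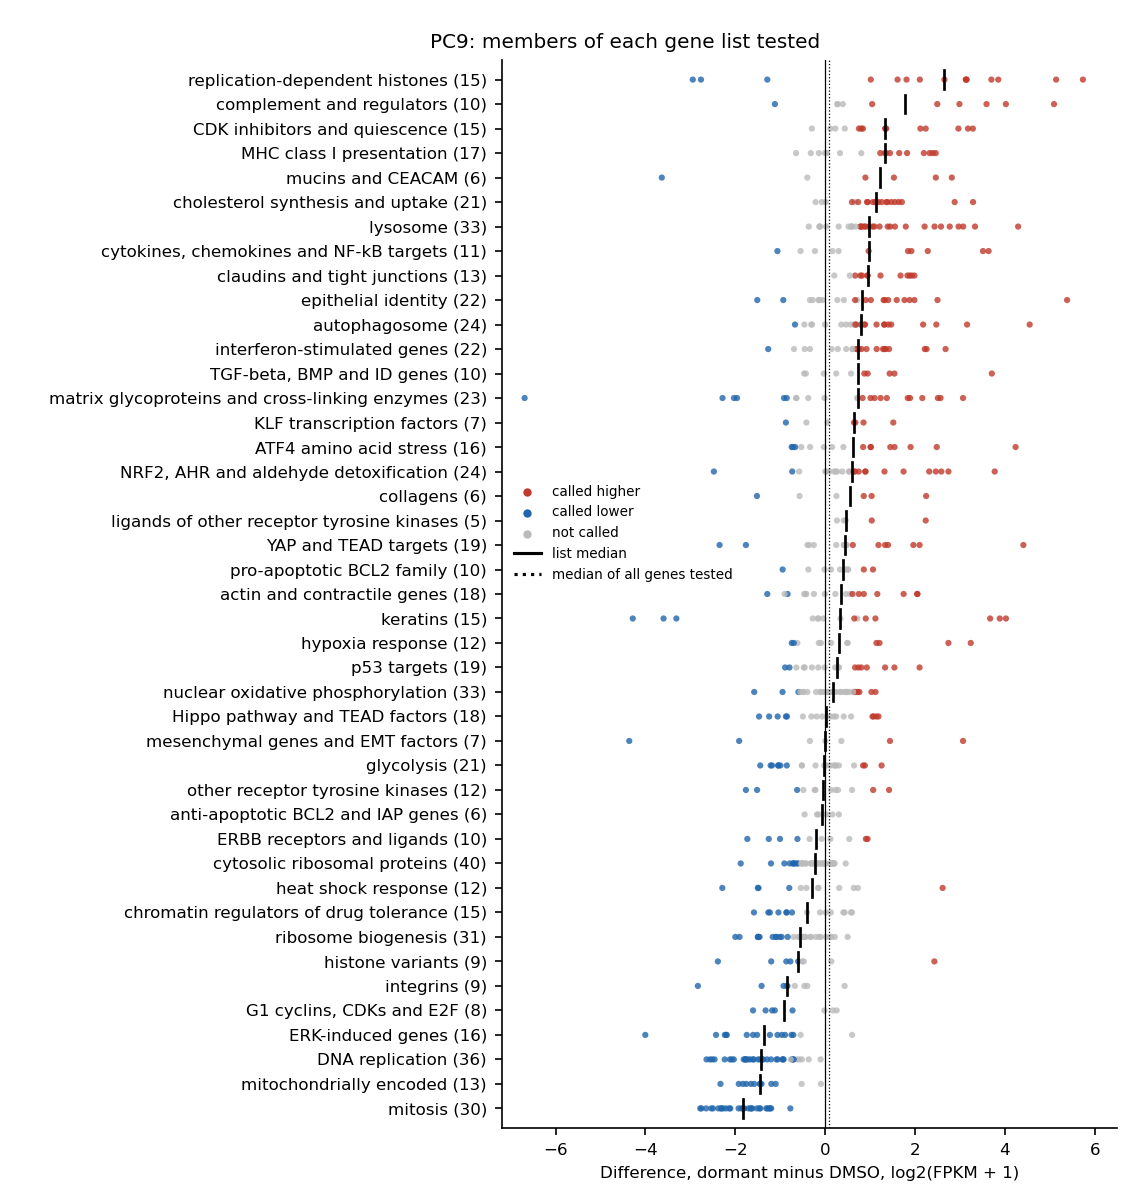
Differences of the tested members of each gene list with 5 or more of them in PC9, dormant minus DMSO in log2(FPKM + 1) on the x axis, with lists in order of their median (bar) and the number tested in parentheses. Replication-dependent histones, complement and quiescence genes lie at the top, and mitosis, mitochondrially encoded and DNA replication genes lie at the bottom.

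The plot of gene lists sets these groups side by side, with lists of protein degradation and immune presentation to the right of the median of all genes. Autophagosome genes were mostly higher. Of 24 tested, 14 rose (3 through 1 group) and 1 fell, with a median of 0.79 (2 higher with all 12 libraries). GABARAPL1, which is attached to the growing autophagosome membrane, went from 6.75 and 4.93 FPKM to 165 and 152 (4.55 ± 0.22, limma adjusted p = 3.68e-07). WIPI1, which binds the membrane where autophagosomes form, went from 1.17 and 0.48 to 14 and 16.1 (3.16 ± 0.27), and the cargo receptor SQSTM1 from 337 and 431 to 1768 and 2549 (2.47 ± 0.24). GABARAP, a close relative of GABARAPL1, went from 181 and 154 to 658 and 882 (2.18 ± 0.22), and the receptor OPTN rose by 1.47 ± 0.23. Without the second DMSO library 8 rose. The genes of the core conjugation step, ATG5, ATG7, ATG10, ATG12 and ATG16L1, were not called, and ATG3 fell (-0.67 ± 0.22), which held with the first dormant library omitted but neither with any other omitted nor with all 12 libraries. SQSTM1, GABARAP and OPTN were not called with all 12 libraries.

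Lysosomal genes rose more widely, 22 of 33 tested (4 through 1 group) with none lower and a median of 0.98 (13 without the second DMSO library, 4 with all 12 libraries). ASAH1, the acid ceramidase, went from 21.6 and 18 FPKM to 468 and 352 (4.29 ± 0.22, limma adjusted p = 4.26e-07) and LIPA, the acid lipase that frees cholesterol from its esters, from 5.4 and 4.84 to 67.4 and 54.7 (3.33 ± 0.23). PSAP, the precursor of the saposins that help digest sphingolipids, went from 193 and 184 to 1513 and 1673 (3.07 ± 0.20), and the protective protein CTSA (2.97) and the sialidase NEU1 (2.77) rose as well. CTSB, an abundant cysteine protease, was at 103 and 100.8 FPKM in DMSO and 87.9 and 100.6 in dormant libraries and was not called. So the rise was not shared by all enzymes of the compartment. Genes of cholesterol synthesis and uptake rose in 17 of 21 (2 through 1 group) with none lower and a median of 1.14 (13 to 18 with 1 library left out, 1 with all 12). TM7SF2, a sterol reductase, went from 0.93 and 1.26 to 17.1 and 22.1 FPKM (3.29 ± 0.25) and MSMO1, a sterol demethylase, from 10.6 and 8.9 to 94.1 and 64.8 (2.88 ± 0.24). The early enzymes SQLE (1.71), HMGCS1 (1.64) and MVD (1.55) rose less. PSAP, CTSA, NEU1, TM7SF2, SQLE, HMGCS1 and MVD were not called in the fit of 12 libraries.

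Genes of innate immunity and antigen presentation were higher. Of 10 complement genes tested 6 rose (1 through 1 group) and 1 fell, with a median of 1.77 (6 to 7 with 1 library left out, 4 with all 12). CFB, a protease of the alternative pathway, went from 3.17 and 3.07 FPKM to 143 and 136 (5.09 ± 0.21, limma adjusted p = 2e-07), the classical pathway protease C1S from 2.08 and 1.66 to 51.2 and 40.4 (4.02 ± 0.24) and its partner C1R from 2.13 and 2.495 to 17.7 and 17.6 (2.496 ± 0.23). The regulators CLU (3.59) and CD55 (2.99), which protect cells from complement, rose with them, and C3, the central component, fell from 9.61 and 7.81 to 4.49 and 2.62 (-1.12 ± 0.27), a call lost without the first DMSO library and with all 12 libraries. Of 17 genes of MHC class I presentation 10 rose and none fell, with a median of 1.33 (9 to 11 with 1 library left out, 1 with all 12). HLA-B went from 193 and 137 to 793 and 1022 FPKM (2.46 ± 0.24) and TAP1, a subunit of the peptide transporter, from 5.42 and 4.76 to 26.8 and 32.4 (2.33 ± 0.23), with HLA-F (2.39) and HLA-E (1.82) higher too. HLA genes have close copies and vary between people, so how reads were shared among them is uncertain. CLU, HLA-B, TAP1 and HLA-E were not called once all 12 libraries were fitted.

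Interferon-stimulated genes rose in 13 of 22 tested (3 through 1 group) and fell in 1, with a median of 0.73. Without the first DMSO library 7 rose and 2 fell, without the second 8 rose, 4 fell without the first dormant library and 2 without the second, and 3 rose with all 12. IFI6, a mitochondrial protein induced by interferon, went from 2.31 and 1.69 FPKM to 19.3 and 17 (2.68 ± 0.24, limma adjusted p = 1.64e-05) and IFITM3, which blocks entry of viruses, from 78 and 70.4 to 279.5 and 460.4 (2.26 ± 0.25). IFIT2 was at 0.205 and 0.155 FPKM in DMSO and 5.78 and 3.44 in dormant libraries, IFITM2 at 0.665 and 0.505 in DMSO and 2.26 and 4.53 in dormant libraries, and OAS3, a sensor of double-stranded RNA and the 1 member called lower, at 3.63 and 2.66 in DMSO and 0.785 and 0.64 in dormant libraries. Of 11 cytokine and NF-kB genes tested 6 rose (1 through 1 group) and 1, TNFAIP3, fell, against 2 and 0 with all 12 libraries. Without the second DMSO library TNFAIP3 was not called, and 2 fell without the first dormant library. IL32 went from 4.09 and 2.96 to 53.6 and 56.2 FPKM (3.64 ± 0.23) and the adhesion molecule ICAM1 from 6.97 and 8.68 to 91.1 and 108 (3.51 ± 0.22). The chemokine CXCL16 (2.28) and the inhibitor NFKBIA (1.92) rose as well, and IL6 was at 0.645 and 0.4 FPKM in DMSO and 4.75 and 4.16 in dormant libraries. Of the leukocyte markers PTPRC, CD3D, CD3E, MS4A1, LYZ and NKG7, none exceeded 0.11 FPKM in any PC9 library. ICAM1, CXCL16, NFKBIA and TNFAIP3 were not called with all 12 libraries.

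Dormant PC9 cells had higher levels of genes that mark and seal epithelia. Of 22 epithelial identity genes 12 rose (1 through 1 group) and 2 fell, with a median of 0.81 (8 to 14 higher with 1 library left out, 1 with all 12). CDH1, E-cadherin, went from 6.68 and 5.22 FPKM to 23.3 and 21.7 (1.77 ± 0.23, limma adjusted p = 0.000201) and the membrane protease PRSS8 from 15.8 and 13.6 to 64 and 119.8 (2.501 ± 0.28). The ETS factor EHF, found in epithelia, fell (-1.51 ± 0.28), and so did GRHL2. Falls numbered 1 without either DMSO library and 4 without the second dormant library. Among 13 claudins and tight junction genes 11 rose (3 through 1 group) and none fell, with a median of 0.95 (7 without the first DMSO library and 5 without the second, none called by limma with all 12). CLDN4 went from 181 and 159 to 525 and 869 FPKM (1.99 ± 0.25) and OCLN, occludin, from 5.01 and 5.16 to 25.7 and 19.1 (1.93 ± 0.24), with CLDN1 (1.68) also higher. CGN, cingulin, was at 0.635 and 0.59 in DMSO and 4.67 and 4.82 in dormant libraries. Mucins rose in the same cells, MUC20 from 11.3 and 8.91 to 66.2 and 89.8 (2.82 ± 0.24), MUC1 (2.46) and MUC16 (1.53). Of 6 mucin and CEACAM genes tested 4 rose and 1 fell, 1 of each through 1 group (2 lower without the second dormant library, 2 and 1 with all 12). CDH1, PRSS8, EHF, GRHL2, CLDN4, OCLN, CLDN1, MUC1 and MUC16 were not called in the fit of 12 libraries.

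Keratins changed in opposite directions. The simple epithelial keratins KRT8 (-0.15 ± 0.24) and KRT18 (-0.28 ± 0.27), the most abundant ones, were not called. KRT5, the basal partner of KRT14, went from 65.6 and 51.4 FPKM to 2.76 and 1.46 (-4.28 ± 0.27, limma adjusted p = 1.4e-06), and KRT6A, a keratin of activated epidermis, from 116 and 89.2 to 8.46 and 6.66 (-3.60 ± 0.23), while KRT6B was at 14.6 and 12 in DMSO and 0.285 and 0.6 in dormant libraries. KRT14 itself went from 2.57 and 1.71 to 33.9 and 44 (3.67 ± 0.25), KRT16, the usual partner of KRT6A, from 18.5 and 16.5 to 262 and 343 (4.02 ± 0.22) and KRT17 from 86.2 and 70.9 to 903 and 1515 (3.89 ± 0.26). Among these 6 keratins, type II members of the basal pairs thus fell while type I members rose. Of 15 keratins tested 6 rose and 3 fell, 1 of each through 1 group, with a median of 0.34 (4 to 7 higher with 1 library left out, 6 lower without the second dormant library, 1 and 3 with all 12). KRT6A and KRT6B, and KRT14, KRT16 and KRT17, are close copies of each other, with which reads may be shared. TP63, DSG3 and DSC3, which define squamous epithelium with KRT5, stayed at or under 0.155 FPKM. Of the 6 keratins, KRT16 and KRT17 were not called with all 12 libraries.

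**Figure D4:**
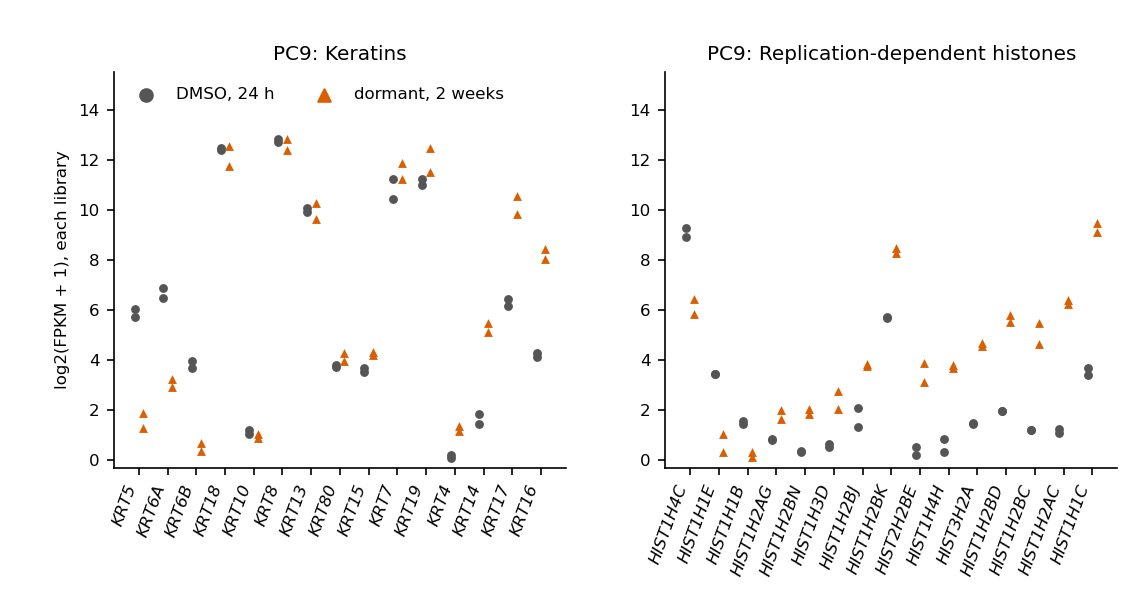
Values of each PC9 library as log2(FPKM + 1) (y axis) for the 15 keratins tested (left) and the 15 replication-dependent histones tested (right), ordered by difference, with circles for DMSO and triangles for dormant cells. KRT5, KRT6A and KRT6B fell and KRT14, KRT17 and KRT16 rose, and 12 of the 15 histones rose.

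Mesenchymal genes did not move as a group. VIM, vimentin, went from 11.7 and 10.8 FPKM to 2.04 and 2.48 (-1.91 ± 0.24, limma adjusted p = 0.000153), and with TGFBI it was 1 of 2 that fell among 7 tested. FN1, fibronectin, went from 5.51 and 7.98 to 57.8 and 69 (3.07 ± 0.24). SNAI2, the EMT factor SLUG, was at 1.76 and 1.81 FPKM in DMSO and 1.35 and 1.06 in dormant libraries and was not called (-0.34 ± 0.22, adjusted p = 0.254). So the list held 2 rises and 2 falls, under each PC9 library left out too, and 1 of each with all 12 libraries. Of 23 matrix glycoproteins and cross-linking enzymes, a list that holds FN1 as well, 11 rose and 6 fell, 4 and 2 of them through 1 group (9 to 12 and 4 to 9 with 1 library left out, 4 and 2 with all 12 libraries). The lysyl oxidase LOXL4, a cross-linking enzyme, was at 0.105 and 0.21 FPKM in DMSO and 5.47 and 6.27 in dormant libraries. The matrix adaptor MATN2 rose (2.51), and THBS1, thrombospondin, fell from 229 and 242 to 89.6 and 36.1 FPKM (-2.03 ± 0.34). Of the laminin chains LAMB2 rose by 2.16 ± 0.25, and LAMA4 was at 7.25 and 4.84 in DMSO and 0.28 and 0.59 in dormant libraries. Integrins, the receptors of these proteins, fell in 5 of 9, 2 of them through 1 group, with none higher (2 without the first DMSO library and 3 without the second, none called by limma with all 12 libraries). The laminin-binding chain ITGA6 was at 11.2 and 11.3 in DMSO and 0.985 and 0.49 in dormant libraries. Of 6 collagens tested 3 rose and 1 fell, and COL4A5, the 1 of them not called through 1 group, was lost without either DMSO library (adjusted p = 0.0525 and 0.377). With all 12 libraries 1 collagen rose and 1 fell. Contractile genes rose in 7 of 18 (1 through 1 group) and fell in 2. Without either DMSO library 4 rose, without either dormant library 4 fell, and with all 12 libraries 1 rose. TPM1, a tropomyosin, went from 69.7 and 65.8 to 269.7 and 297 FPKM (2.05 ± 0.20) and TAGLN, transgelin, from 8.3 and 7.63 to 38 and 34.6 (2.06 ± 0.22). VIM, THBS1, LAMB2, COL4A5, TPM1 and TAGLN were not called once all 12 libraries were fitted.

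Histone genes of the replication-dependent class, which are normally transcribed in S phase without a poly(A) tail, mostly rose while DNA replication genes fell. Of 15 tested, 12 rose and 3 fell, 5 and 1 of them through 1 group, with a median of 2.66 (11 to 12 and 3 with 1 library left out, 9 and 3 with all 12). HIST1H1C, a linker histone, went from 11.8 and 9.78 FPKM to 548 and 713 (5.74 ± 0.22, limma adjusted p = 1.18e-07), HIST1H2AC from 1.41 and 1.11 to 83.3 and 74.1 (5.14 ± 0.23) and HIST1H2BD from 2.9 and 2.88 to 54.7 and 44.9 (3.70 ± 0.23). HIST1H4C went the other way, from 481 and 618 to 56.1 and 87 (-2.94 ± 0.25), as did the linker histone HIST1H1E (-2.76). The plot of keratins and histones shows that the direction within both families differed from gene to gene. Libraries were made from poly(A) RNA, which holds little of the normal form of these transcripts, histone genes have close copies, and 15 of the 35 listed symbols were not found in the table. The part of the poly(A) form in these values was not tested. Of 9 replacement variants tested 5 fell, 1 through 1 group (2 without the first DMSO library and 3 without the second, 1 with all 12), H2AFZ from 1025 and 886 to 175 and 188 FPKM (-2.39 ± 0.20), and H2AFJ rose (2.43 ± 0.28). Among 15 chromatin regulators linked to drug tolerance 7 fell and none rose (2 lower without the first DMSO library and 4 without the second, up to 2 higher without 1 dormant library, none called by limma with all 12 libraries), DNMT1, the maintenance DNA methyltransferase, from 23.4 and 23.5 to 7.56 and 6.76 (-1.58 ± 0.22). The demethylase genes KDM5A, KDM5B and KDM5C were not called.

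Mitochondrially encoded genes and, in part, genes of ribosome biogenesis were lower. Of 31 ribosome biogenesis genes 12 fell, 38.7% against 15.4% of all genes tested, and none rose, with a median of -0.56 (21 lower and 2 higher without the first dormant library, 1 lower with all 12). NCL, nucleolin, went from 636 and 574 FPKM to 182 and 142 (-1.91 ± 0.21, limma adjusted p = 6.75e-05) and the nucleolar regulator LYAR from 7.99 and 8.08 to 1.35 and 1.17 (-1.998 ± 0.24). Of 40 cytosolic ribosomal proteins 31 were not called, 9 were lower (22.5%) and none higher, with a median of -0.23. That count was 2 without either DMSO library and 25 without the second dormant library, and 7 were higher without the first dormant library. With quantile normalization 14 fell and 5 rose, and with all 12 libraries 1 fell. RPS2 went from 508 and 645 to 155 and 155 FPKM (-1.88 ± 0.21) and RPSA from 2714 and 2651 to 1059 and 1276 (-1.21 ± 0.21). Of the 13 mitochondrially encoded genes 11 fell, with a median of -1.45 (7 without either DMSO library, none called by limma with all 12), MT-ND3 from 3381 and 3323 to 804 and 552 (-2.33 ± 0.23) and MT-ATP6 from 3441 and 3314 to 1151 and 998 (-1.66 ± 0.21). MT-CO2, the most abundant of them, was at 20010 and 20470 FPKM in DMSO and 15960 and 22530 in dormant libraries and was not called. NCL, RPSA, MT-ND3 and MT-ATP6 were not called with all 12 libraries.

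Nuclear genes of oxidative phosphorylation stayed near the median of all genes, with 6 of 33 higher, 3 lower and a median of 0.17 (2 higher without the first DMSO library and 3 without the second, 5 lower without the first dormant library, 6 lower with quantile normalization or median of ratios scaling, none called by limma with all 12 libraries). The COX subunit COX5B (1.03) and NDUFA4 (1.12) rose and CYCS, cytochrome c, fell from 277 and 235 FPKM to 106 and 67.8 (-1.58 ± 0.24, limma adjusted p = 0.000586). Glycolytic genes moved in both directions. Of 21 tested 3 rose (1 through 1 group) and 7 fell, with a median of -0.02 (3 lower without the first DMSO library, 5 higher without the first dormant one, 1 higher with all 12). PKM, pyruvate kinase, went from 472 and 493 to 168 and 186 FPKM (-1.44 ± 0.20), LDHA, lactate dehydrogenase, from 3670 and 3381 to 1451 and 1592 (-1.21 ± 0.21) and ENO1, enolase, from 3058 and 3007 to 1139 and 1567 (-1.18 ± 0.23). The call of LDHA ended without the first DMSO library (adjusted p = 0.073) and that of ENO1 without either (0.0609 and 0.0501). GAPDH was at 14010 and 14490 FPKM in DMSO and 14140 and 18750 in dormant libraries and was not called, and the glucose transporter SLC2A3 was at 0.6 and 0.925 in DMSO and 3.75 and 2.7 in dormant libraries. Chaperones fell in 4 of 12, HSP90AA1 from 5331 and 5751 to 1527 and 841 (-2.29 ± 0.28), and HSPB1 rose from 43.9 and 42.9 to 169.9 and 432 (2.62 ± 0.35). With equal library sums, or without the first dormant library, 3 chaperones rose, and with all 12 libraries 1 fell. COX5B, NDUFA4, CYCS, PKM, LDHA, ENO1 and HSPB1 were not called in the fit of 12 libraries.

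Stress and detoxification genes rose in part. Of 24 genes of the NRF2, aryl hydrocarbon receptor and aldehyde pathways 12 rose (4 through 1 group) and 2 fell, with a median of 0.59 (7 higher without the first DMSO library, 5 higher and 1 lower with all 12). CYP1A1, a cytochrome P450 induced through the aryl hydrocarbon receptor, was at 0.175 and 0 FPKM in DMSO and 14 and 13.6 in dormant libraries. The aldehyde dehydrogenases ALDH1A3, from 44.9 and 77.1 to 400.0 and 400.1 (2.74 ± 0.26, limma adjusted p = 1.89e-05), and ALDH3A1 (2.46) rose, and AKR1B10, an aldo-keto reductase, fell from 197 and 188 to 34.8 and 32.7 (-2.48 ± 0.20). The classical NRF2 targets NQO1, HMOX1, GCLC and GCLM were not called. Of 16 genes of the amino acid stress response 8 rose and 3 fell, with a median of 0.63 (5 higher without the second DMSO library, none lower by limma without either DMSO library, 3 and 0 with all 12). Of the 8, 4 entered through 1 group, and the median of the other members was 0.06. DDIT3, which encodes CHOP, rose (1.54). NUPR1, a stress-induced nuclear protein, was at 0.16 and 0.15 FPKM in DMSO and 15.1 and 28.5 in dormant libraries, and ATF3 at 0.545 and 0.94 in DMSO and 5.89 and 5.07 in dormant libraries. ATF4 itself, known to be controlled at translation, was at 98.3 and 101.3 FPKM in DMSO and 118 and 105 in dormant libraries and was not called. For p53 targets and hypoxia genes, shares are given first for members that did not enter through 1 group. Of such p53 targets 26.7% rose and 6.67% fell, and of hypoxia genes 33.3% and 16.7%. Among all such genes 19.2% rose and 14.2% fell. Among 19 p53 targets 7 rose and 2 fell, 3 and 1 of them through 1 group, with a median of 0.27 (3 higher without the first DMSO library and 4 without the second, 6 lower without the first dormant one, 1 and 0 with all 12), and CDKN1A and MDM2 were not called. Of 12 hypoxia genes EGLN3, from 3.25 and 2.71 to 42.3 and 31.5 (3.24 ± 0.24), ADM (2.74), ANKRD37 and P4HA2 rose and PDK1 and BHLHE40 fell, with none lower without either DMSO library, and 1 and 0 with all 12. Of the Notch genes 2 passed the filter and 1, RFNG, was called higher, through 1 group and not without either DMSO library. DDIT3, ADM, ANKRD37, P4HA2, PDK1 and BHLHE40 were not called once all 12 libraries were fitted.

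Of 10 TGF-beta, BMP and ID genes tested 5 rose (2 through 1 group) and none fell (3 higher without the second DMSO library, 2 lower without the first dormant one, 1 higher with all 12). ID3, an inhibitor of helix-loop-helix factors that BMP signals induce, went from 8.54 and 9.04 FPKM to 103 and 156 (3.71 ± 0.24, limma adjusted p = 1.79e-06), whereas ID1 was at 26.2 and 34.3 in DMSO and 25.3 and 19.1 in dormant libraries and was not called. The TGF-beta targets TGFBI and PMEPA1, from 24.9 and 23.9 to 3.79 and 4.35 (-2.32 ± 0.23), fell. Of the alveolar and airway genes 3 of 26 passed the filter. GATA6 was at 0.345 and 0.245 in DMSO and 2.14 and 2.31 in dormant libraries, the water channel AQP3 went from 0.96 and 1.5 to 10.3 and 12.52 (2.48 ± 0.26), and CAV1, caveolin, fell from 919.7 and 836 to 314 and 258 (-1.62 ± 0.21), while 8 of the 26 were listed at 0 in all 4 libraries. Of 7 KLF factors 4 rose (2 through 1 group) and KLF10 fell, but 1 rose without either DMSO library and 2 with quantile normalization. KLF8 (1.52 ± 0.27) kept its call with all 12 libraries, and CAV1 and KLF10 did not.

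The response of PC9 was then set against that of the other lines, through the difference in PC9 minus the mean of the differences in HCC827 and HCC4006. The fit held 10 libraries and 13910 genes, without the second HCC4006 dormant and the second HCC827 DMSO library, which stood apart. By limma, PC9 was above the other lines in 437 genes (3.14%) and below in 657 (4.72%), 1094 in all (7.86%), and 638 of these were also called in PC9 alone. With median of ratios scaling the counts were 864 and 763, with quantile normalization 813 and 846, and with all 12 libraries 70 and 58. Leaving out a PC9 library lowered them most without the first DMSO library, to 180 and 214. The second DMSO library left out gave 185 and 255, and the second dormant library 254 and 290. The median contrast of all genes was -0.14 and 0.02 with median of ratios scaling. Among the 638 genes, 46 were higher in dormant PC9 and lower in both other lines, and 113 showed the reverse.

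**Figure D5:**
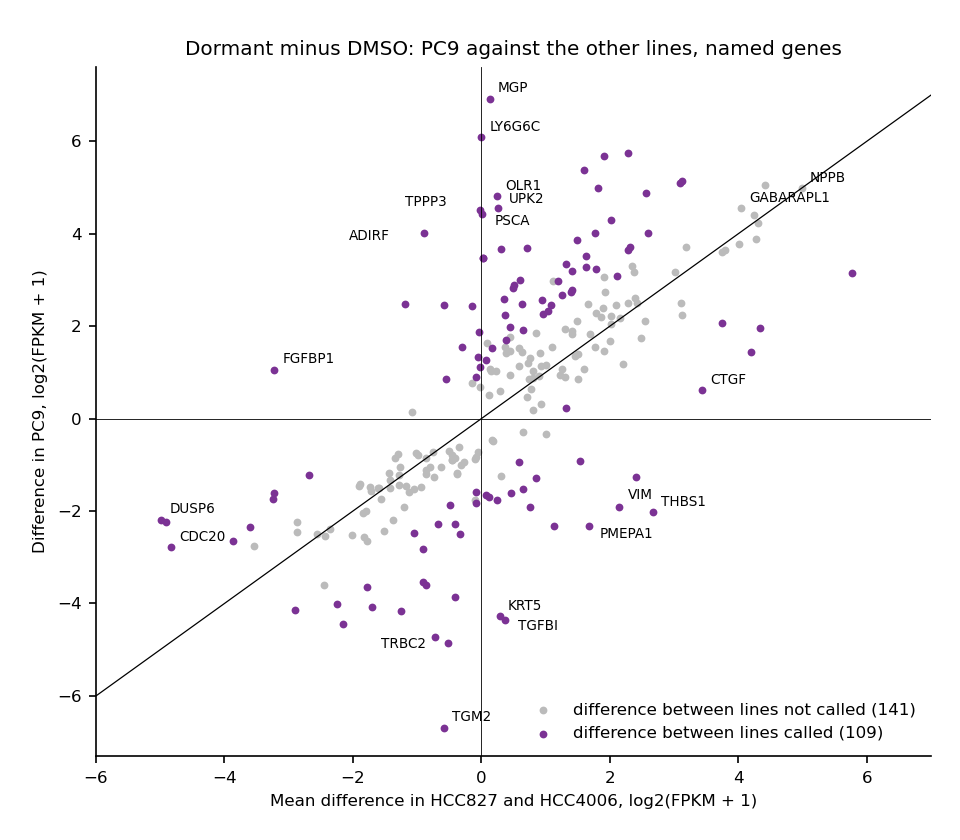
Difference between dormant and DMSO cells in PC9 (y axis) against the mean difference in HCC827 and HCC4006 (x axis), in log2(FPKM + 1), for the 250 named genes tested in PC9, with the line of equal values. In 109 of them the difference between lines was called, and MGP and LY6G6C lie near 0 on the x axis.

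Several of the largest changes of PC9 differed from those of the other lines, as the plot of PC9 against the other lines shows. In MGP, HCC827 had 0.015 and 0.385 FPKM in DMSO and 0.015 and 0.035 in dormant libraries, and HCC4006 16.9 and 30.1 in DMSO and 26.9 and 8.38 in dormant libraries, so that PC9 exceeded their mean change by 6.80 ± 0.37 (limma adjusted p = 3e-05). LY6G6C was listed at 0 in all 8 libraries of the other lines and entered this fit through dormant PC9 alone, so no contrast is given. TPPP3, which encodes a tubulin-binding protein, and the surface proteins PSCA and UPK2 stayed at or under 0.4 FPKM there. For these last 4 genes the other lines held little or no transcript in either group. They passed the filter through PC9 libraries alone, so their contrasts are not given. OLR1 was under 0.5 FPKM in the other lines save 7.50 in the HCC4006 library that stood apart. It too passed the filter through PC9 libraries alone, and with all 12 libraries it was not called (limma adjusted p = 0.112). ADIRF, an adipogenesis factor, was listed at 0 in HCC827 and went from 32.5 and 39.4 to 9.62 and 0 FPKM in HCC4006 (4.90 ± 0.36). FGFBP1, which carries fibroblast growth factors, went from 6.67 and 12.54 to 0.08 and 0.15 FPKM in HCC827 and from 30.5 and 32.1 to 1.53 and 2.06 in HCC4006. In PC9 it went from 1.09 and 1.13 to 3.28 and 3.52, the opposite direction (4.29 ± 0.30), though its call within PC9 ended without either DMSO library (adjusted p = 0.074 and 0.0603).

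Downwards, TGM2 was at 0.845 to 4.75 FPKM in the other lines in both groups, against 155 and 149 in PC9 DMSO cells. It entered the PC9 fit through 1 group, so no contrast is given. TGFBI fell in PC9 and went from 4021 and 2891 to 5394 and 3072 FPKM in HCC4006, with overlapping groups (-4.73 ± 0.28). VIM went from 25.9 and 7.23 to 205 and 212 FPKM in HCC827 and from 217 and 184 to 504 and 654 in HCC4006, higher in both, against a fall in PC9 (-4.06 ± 0.28). PMEPA1 (-4.003 ± 0.30) followed the pattern of VIM in the libraries of the fit. THBS1 went from 13 and 3.6 to 578 and 184 in HCC827 (-4.69 ± 0.90), a contrast lost with all 12 libraries (adjusted p = 0.127) and without the second PC9 dormant library (0.0578). KRT5 stayed at or under 0.535 FPKM in the other lines, so it passed the filter through PC9 libraries alone and no contrast is given. TRBC2 (-4.34 ± 0.31) and TRBJ2-1 (-4.001 ± 0.33) were listed at 0 in HCC827, where no fall was possible. Their contrasts therefore follow in part from the levels in DMSO cells. TRBJ2-1 was not called with all 12 libraries (limma adjusted p = 0.0584). Other large changes of PC9 had a like size in the other lines. NPPB reached 29.1 and 32.5 FPKM in dormant PC9, 42.1 and 37.4 in HCC827 and 54.8 and 19.9 in HCC4006, and the difference between lines was not called (0.01 ± 0.30, adjusted p = 0.994). GABARAPL1 gave 0.51 ± 0.33 (adjusted p = 0.392) and IGFBP3 0.17 ± 0.34 (adjusted p = 0.807). A contrast that misses the threshold does not show that the lines responded alike.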

How the data were processed

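Bulk mRNA was sequenced from duplicate plates of PC9, HCC827 and HCC4006 cells, with stranded libraries per the labels' protocols. The deposited values are FPKM, rounded to 0.01. Per the submitters' processing notes STAR 2.5.1b, Cufflinks 2.2.1 and DESeq2 1.10.1 were used with hg19 and GRCh37, without a role or order for any of them. Each library has 2 value columns, whose content the notes do not state. Their median absolute log2 difference in PC9 was 0.0553, and their mean was used. Summed FPKM of the PC9 libraries ran from 820478 to 889076, and 27 symbols read as dates were looked up by gene identifier. Depth is unknown.

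Values were analysed as log2(FPKM + 1) without further scaling. Limma 3.58.1 in R 4.3.3 (lmFit, eBayes with a mean-variance trend, two-sided) was fitted to the 4 PC9 libraries, with 2 residual and 9.01 prior degrees of freedom, and to 10 libraries for the test between lines. Adjustment followed Benjamini-Hochberg across every gene in a fit. On simulated data with 10753 genes, of 100 genes changed by 1 log2 unit 60% were called in the right direction, and of 100 changed by 2 units 97%, with 7 unchanged genes called. Alternatives were other pseudocounts (0.1 and 5), filters, scalings, columns and library sets, a replicate block and each library left out.

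The 50 gene lists, the comparison and the genes named were chosen with earlier results of these data known, so no list is independent evidence. Named were the 12 largest and 12 smallest called differences of genes with non-overlapping libraries and a mean of at least 5 FPKM in the higher group. Added were up to 5 called members of each list, the 8 largest and 8 smallest contrasts between lines called there and in PC9, and the 6 highest genes near 0 on 1 side. Genes fixed singly by name completed them, and list members named beyond this rule were chosen after their values were seen. Promoters came from a RefSeq table and were matched by symbol. The CHR element and the CCAAT box were searched on both strands, and shares are given only for lists with at least 80% of genes matched. Some genes that meet the rule are not reported here.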

Additional observations from a re-analysis of the deposited data

Results flagged for a closer look

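In 23 genes the change of PC9 differed from the mean change of HCC827 and HCC4006 by a test of that difference (limma, 10 libraries, Benjamini-Hochberg adjusted p under 0.05). In PC9 the change lay above that of the other lines in MGP (6.80), LY6G6C (6.09), ADIRF (4.90), OLR1 (4.57), TPPP3 (4.53), PSCA (4.41), UPK2 (4.30), FGFBP1 (4.29), DUSP6 (2.79), CDKN2B (1.66) and CCND1 (1.62), as a difference of log2 differences. DUSP6 and CCND1 were lower in dormant than in DMSO cells of all 3 lines, and CCND1 fell by less in PC9. DUSP6 had 3.54 and 3.58 FPKM in PC9 DMSO cells, against 78.4 and 98.7 in HCC4006 DMSO cells. In PC9 it went to 0 in both dormant libraries and could fall no further, so its contrast does not show a weaker response. CDKN2B was higher in the dormant libraries of PC9 and HCC827 and was listed at 0 in all HCC4006 libraries. With all 12 libraries CCND1 (adjusted p = 0.718), DUSP6 (0.58), CDKN2B (0.213) and OLR1 (0.112) were not called.

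The change in PC9 lay below that of the other lines in TGM2 (-6.10), TGFBI (-4.73), THBS1 (-4.69), KRT5 (-4.56), TRBC2 (-4.34), VIM (-4.06), TRBJ2-1 (-4.001), PMEPA1 (-4.003), ANKRD1 (-3.42), CTGF (-2.81), BMF (-1.70) and CDKN1B (-1.08). The YAP targets CTGF and ANKRD1 and the death activator BMF were lower in dormant PC9 than in any dormant library of the other lines. ANKRD1 was at 0.28 and 0.305 FPKM in PC9 DMSO and 0.85 and 0.405 in dormant PC9 libraries, against 19.5 and 16.7 in dormant HCC827 and 17.1 and 92.1 in dormant HCC4006. BMF was at 0.175 and 0.175 FPKM in the dormant libraries of PC9, 3.29 and 2.46 in HCC827 and 4.92 and 4.66 in HCC4006. CDKN1B was not called with all 12 libraries (adjusted p = 0.693), and the second HCC4006 dormant library, which stood apart, listed it at 65.4 FPKM against 2.99 in the first.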

How the results depend on the processing

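The count of genes that rose in PC9 was 2412, and of genes that fell 1654. Without a filter on low values they were 674 and 435 of 33699, with a filter at 5 FPKM 1517 genes rose, and with all 12 libraries in 1 fit 342 rose and 170 fell. With 1 library left out, 1315 to 3139 rose and 842 to 2569 fell, where the lone library of a group is assumed to vary like the other group. Of the 240 named genes called, 196 kept their call with each library left out, 97 with all 12 libraries and 156 under every alternative but that fit, and none reversed its direction. For PC9 against the other lines, the counts of 437 above and 657 below became 70 and 58 with all 12 libraries, and 813 or 864 were above with quantile normalization or median of ratios scaling. With a pseudocount of 0.1, 408 were below. With a PC9 library left out, 180 to 390 were above and 214 to 581 below.

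Replicates share a number between groups in the labels, and nothing says that a number marks a shared culture or day. In PC9 the deviations of same-numbered libraries from their group means correlated across genes at r = 0.108, over 2 pairs. With the replicate number as a block, 2787 genes rose and 1951 fell in PC9. Between lines, limma with the block, with 1 residual degree of freedom, called 0 above and 0 below, with 1059 and 3064 at an unadjusted p under 0.05. Since depth is not given, no limit of detection can be set for genes listed at 0.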

Other observations

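Gene families outside the lists above were looked at after their values had been seen. Among 15 kallikrein genes, which encode secreted serine proteases, 5 passed the filter, 3 rose and 1 fell. KLK5, which activates other kallikreins in skin, went from 494 and 448 FPKM in DMSO to 2106 and 2999 in dormant PC9 libraries (2.41 ± 0.23, limma adjusted p = 2.24e-05), KLK7 from 20.6 and 19 to 313 and 353 (4.002 ± 0.20) and KLK8 from 24.1 and 16.6 to 47.6 and 56.1 (1.32 ± 0.24). KLK6 went the other way, from 846 and 699 to 78.8 and 87.4 (-3.20 ± 0.21), so that neighbours of 1 gene cluster moved in opposite directions. All 5 pregnancy-specific glycoproteins that passed the filter, of 10 found, were called higher. All 5 entered through the dormant group, so their direction followed from the filter. Of all genes that entered through 1 group 72.2% were called. Beside PSG5, PSG1 went from 0.505 and 0.045 to 37.3 and 28.9 FPKM and PSG8 from 0.175 and 0.07 to 8.57 and 4.27. These genes passed through their dormant libraries and are near-identical copies, so their reads cannot be assigned with certainty.

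Metallothioneins fell in 3 of the 5 tested, MT2A, MT1A and MT1X, the last from 14.4 and 12.4 to 3.52 and 4.38 FPKM (-1.54 ± 0.24, limma adjusted p = 0.000615), and MT1F rose from 5.62 and 6.5 to 14.5 and 19.7 (1.35 ± 0.24). Among 11 tested genes whose symbol begins with S100, nearly all of them calcium-binding proteins, 3 rose and 2 fell. S100A6 went from 1167 and 1098 to 2110 and 2547 FPKM (1.03 ± 0.21), S100A13 rose by 1.49 ± 0.21 and S100A14 by 1.099 ± 0.22, while S100A2 went from 26.1 and 22.5 to 2.71 and 2.88 (-2.73 ± 0.23) and S100P from 96.1 and 98 to 29.9 and 33.1 (-1.59 ± 0.20). S100A4, often taken as a mesenchymal marker, was at 75.8 and 67.4 FPKM in DMSO and 67.3 and 76.2 in dormant libraries and was not called (0.00 ± 0.21, adjusted p = 0.991). In the fit of all 12 libraries KLK5, KLK8, KLK6, MT1X, MT1F, S100A6, S100A13, S100A14 and S100P were not called.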
